A study of Homo sapiens with 30 samples.

Results

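The expression of 9 genes of the transforming growth factor beta (TGF-beta) pathway was followed in RNA sequencing of A549 cells. They are the ligand genes TGFB1, TGFB2 and INHBA, the antisense RNA TGFB2-AS1, the receptor genes TGFBR1 and TGFBR2, the signal carrier SMAD3 and the feedback inhibitors SMAD7 and SKIL. The members were found by exact gene symbol, and all 9 were among the 26801 genes of the deposited table. The 30 libraries form 10 groups of 3. A549 is an established human line from a lung adenocarcinoma. The groups KOA, iR_KOA and iR_KOA_D3 carry a knockout (KO) of RSRP1, which encodes an arginine- and serine-rich protein, and iR_WTA and iR_WTA_D3 are wild type (WT). Each of these 5 backgrounds was taken without exposure (NE) and after a magnetic exposure labelled 2H (EX), and every group shares the A549 origin. No wild-type group without the iR label was among the samples. What iR and D3 stand for, which part of RSRP1 was deleted and whether the knockout is 1 clone are not stated in the labels, so a difference between the genotypes and a difference between these cell lines cannot be told apart. Nothing in the labels ties the 3 libraries of a group to separate cultures, and p-values then cover only the spread among those libraries, possibly a technical one.

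TGF-beta ligands are secreted in a latent form, and once released they bind the type II receptor TGFBR2, which recruits and phosphorylates the type I receptor TGFBR1. TGFBR1 then phosphorylates SMAD2 and SMAD3, which enter the nucleus with SMAD4 and act on target genes, among them SMAD7 and SKIL, whose products restrain the pathway. A549 cells are widely used to study the epithelial to mesenchymal change that TGF-beta induces. Only RNA was measured here, so ligand release, receptor activity and SMAD phosphorylation were not observed, and in bulk RNA fewer cells with a transcript and less transcript per cell cannot be told apart.

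RSRP1 ran from 2.09 to 7.95 FPKM (fragments per kilobase of transcript, scaled to each library's depth) in the 18 libraries labelled as knockout and from 37.4 to 63.4 FPKM in the 12 labelled as wild type. Depth was close to even, with 34620432 to 38939336 reads recovered per library. Of 11 markers of A549 and lung adenocarcinoma epithelium, 10 exceeded 1 FPKM in every library, and EPCAM ran from 0.402 to 1.85 FPKM. Of the markers of other cell types, the leukocyte gene PTPRC reached 0.0411 FPKM, the endothelial gene PECAM1 0.0114 and the fibroblast gene COL1A2 0.0111, while CD14 ran from 1.05 to 17.9, CD68 from 23.7 to 39.6, COL1A1 from 0.443 to 3.71 and CDH5 from 0 to 1.29 FPKM.

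After exposure, TGFB2 was higher in the 3 knockout backgrounds, SMAD7 was higher in 4 of the 5 backgrounds, SKIL in 3 and TGFBR1 was lower in 4. TGFB2 did not pass the test in either wild-type background. Differences were taken on log2(FPKM + 1), tested with limma's moderated test over 12086 genes that reached 1 FPKM in 3 or more libraries, and adjusted by Benjamini-Hochberg over all of them (two-sided, threshold 0.05). INHBA stayed under that minimum, so 8 of the 9 genes were tested. Of these 8, 5 passed in KOA, where 41.5% of all tested genes did. In iR_KOA 4 passed against 35.3% of all genes, and in iR_KOA_D3 4 passed against 45.1%. The wild type gave 2 in iR_WTA against 28.6% and 5 in iR_WTA_D3 against 41.8%. Among 8 genes such counts lie near the shares of all genes, so no more is read from them. The count in iR_KOA was larger with median-of-ratios scaling, as given in the closing section. The median difference of the 8 genes was 0.25 in KOA against -0.025 over all tested genes, 0.17 against -0.047 in iR_KOA, 0.066 against -0.036 in iR_KOA_D3, -0.021 against -0.038 in iR_WTA and -0.022 against -0.051 in iR_WTA_D3.

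**Figure D1:**
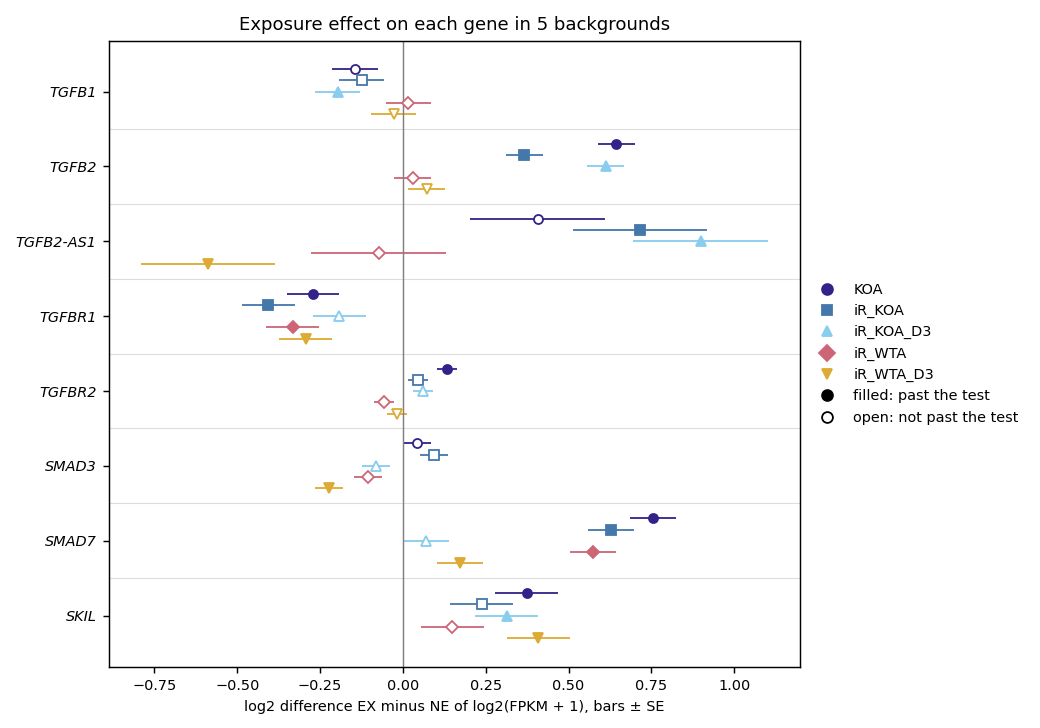
Exposure effect on the 8 tested genes. Each point is the difference EX minus NE of log2(FPKM + 1) in 1 background (n = 3 libraries a group), bars are ± SE, and filled points passed the test. TGFB2 lies between 0.37 and 0.64 in the 3 knockout backgrounds and at 0.030 and 0.073 in the 2 wild-type backgrounds, while every TGFBR1 point lies below 0.

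TGFB1 (chromosome 19, 41330323 to 41353922 in GRCh38.p14, NCBI gene 7040) encodes the ligand form most abundant in many tissues. It was the most abundant of the ligand genes here on the per-length FPKM scale, between 51.4 and 87.8 FPKM in the 30 libraries. In iR_KOA_D3 the unexposed libraries held 60.9, 67.6 and 62.8 FPKM and the exposed ones 54.8, 56.5 and 55.2. The groups did not overlap, and the difference of -0.20 ± 0.068 (SE, adjusted p = 0.0212) was the only exposure effect on TGFB1 past the test. It was lost with median-of-ratios scaling (-0.17, adjusted p = 0.0594) and when exposed replicate 1 or 3 or unexposed replicate 2 was left out, with differences down to -0.15. TGFB1 differed by -0.14 ± 0.068 (SE, adjusted p = 0.0934) in KOA and by -0.12 ± 0.068 (SE, adjusted p = 0.161) in iR_KOA. In iR_WTA_D3 exposed replicate 2, at 87.8 FPKM, stood above the other 2 exposed libraries at 72.1 and 64.9, which lay below the 3 unexposed libraries (75.1, 74.5 and 77.7). The difference there was -0.027 ± 0.068 (SE, adjusted p = 0.779) and passed without that library (-0.15, adjusted p = 0.0352).

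TGFB2 (chromosome 1, 218345336 to 218444619, NCBI gene 7042) encodes a second ligand of the same receptors. Without exposure it held 9.01, 9.15 and 8.86 FPKM in KOA, and with exposure 14.9, 14.6 and 14.4. In iR_KOA the values were 9.09, 9.15 and 9.47 unexposed and 12.4, 13.2 and 11.0 exposed. In iR_KOA_D3 they were 10.6, 10.6 and 11.3 and 18.1, 16.0 and 17.1. In each of the 3 knockout backgrounds all exposed libraries lay above all unexposed ones. The differences were 0.64 ± 0.056 (SE, adjusted p = 1.08e-09) in KOA, 0.37 ± 0.056 (SE, adjusted p = 1.92e-05) in iR_KOA and 0.61 ± 0.056 (SE, adjusted p = 3.74e-09) in iR_KOA_D3, and the ratios of the mean FPKM were 1.62, 1.32 and 1.58. The wild type had 17.1, 18.1 and 17.2 FPKM unexposed and 17.1, 17.6 and 19.0 exposed in iR_WTA. In iR_WTA_D3 it had 14.6, 12.9 and 13.5 and 13.4, 14.4 and 15.4. Exposed and unexposed libraries overlapped in both wild-type backgrounds, with differences of 0.030 ± 0.056 (SE, adjusted p = 0.743) and 0.073 ± 0.056 (SE, adjusted p = 0.312).

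Whether the exposure effect on TGFB2 differed between the genotypes was tested directly as an interaction. The knockout's difference exceeded that of the wild type by 0.54 ± 0.079 (SE, adjusted p = 0.000174) between iR_KOA_D3 and iR_WTA_D3, where 2.38% of all tested genes passed and TGFB2 and TGFB2-AS1 were the 2 members that did. Between iR_KOA and iR_WTA the excess was 0.34 ± 0.079 (SE, adjusted p = 0.0496), the only member past the test, with 0.538% of all genes past it. That second call sits at the threshold: it was lost with a pseudocount of 0.1 (0.37, adjusted p = 0.0549), median-of-ratios scaling (0.35, adjusted p = 0.0561), a filter on the mean (0.34, adjusted p = 0.0524) and only the 4 groups fitted (0.34, adjusted p = 0.196). It was also lost with the replicate number as a block and with no filter, where INHBA was the only member past the test. Leaving out any of 10 of the 12 libraries, all except exposed replicate 3 of either background, also ended it (adjusted p up to 0.153). Within the knockout the effect in iR_KOA minus that in KOA was -0.28 ± 0.079 (SE, adjusted p = 0.0387), again the only member past the test, against 5.08% of all genes. It was lost with no filter (-0.28, adjusted p = 0.0630), with median-of-ratios scaling (-0.26, adjusted p = 0.0706) and without any of 9 of the 12 libraries (adjusted p up to 0.121). These comparisons share their libraries with the exposure differences above and add no separate evidence.

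The order of the TGFB2 levels placed iR_WTA EX (17.9 ± 0.949 FPKM, SD, n = 3) and NE (17.5 ± 0.527) first and iR_KOA_D3 EX (17.1 ± 1.01) next, with overlapping neighbours. After a gap followed KOA EX (14.6 ± 0.224), iR_WTA_D3 EX (14.4 ± 0.983), iR_WTA_D3 NE (13.7 ± 0.862), iR_KOA EX (12.2 ± 1.08) and iR_KOA_D3 NE (10.8 ± 0.419), each overlapping the next. The unexposed iR_KOA (9.24 ± 0.205) and KOA (9.01 ± 0.143) groups overlapped each other at the bottom and lay below all others. As a share of the summed TGFB1 and TGFB2 FPKM, TGFB2 made up 12.2% ± 0.459 (SD, n = 3) in unexposed and 20.1% ± 1.04 in exposed KOA, and 14.5% ± 0.891 and 23.5% ± 1.36 in iR_KOA_D3. In iR_WTA that share was 21.9% ± 1.05 unexposed and 22.0% ± 0.144 exposed.

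**Figure D2:**
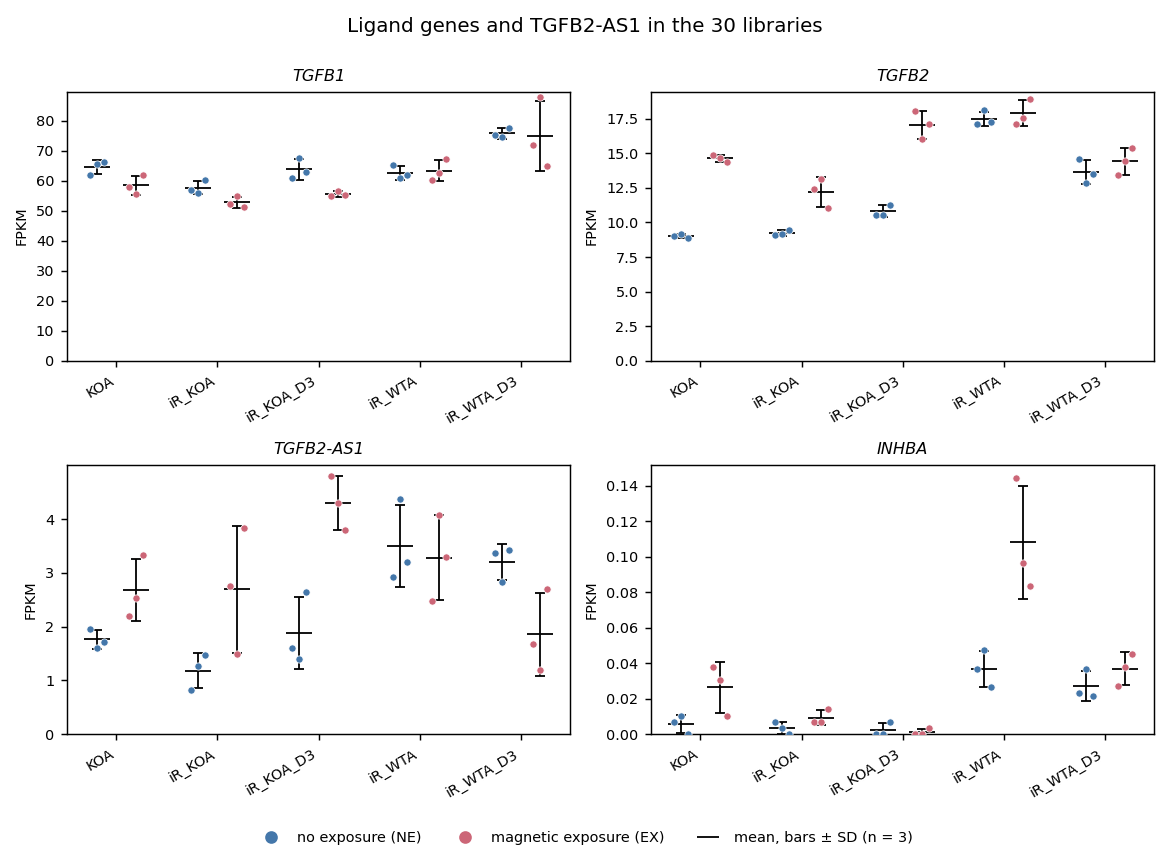
FPKM of TGFB1, TGFB2, TGFB2-AS1 and INHBA in each library. Points are the 30 libraries, grouped by background and coloured by exposure, and black marks are the mean ± SD of 3 libraries. TGFB2 rises from 9.01, 9.24 and 10.8 to 14.6, 12.2 and 17.1 FPKM in the 3 knockout backgrounds, and INHBA stays at or below 0.144 FPKM.

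TGFB2-AS1 (chromosome 1, 218344196 to 218345678, NCBI gene 728463) is a long non-coding RNA transcribed on the opposite strand, head to head with TGFB2. The annotated genes share 343 bases, from 218345336 to 218345678, and no source states whether the counting used strand. How reads in that stretch were assigned thus cannot be told. Part of the TGFB2-AS1 signal could belong to TGFB2, or such reads could be missing from the counts of both genes. Their start regions are shown because both genes rose past the test after exposure in iR_KOA and iR_KOA_D3. In KOA only TGFB2 passed, in iR_WTA_D3 only TGFB2-AS1, which fell, and in iR_WTA neither did. Windows are RefSeq promoters (GRCh38.p14) of 300 bases, from 250 before to 50 after the start, 5′ to 3′ on the gene's strand. TGFB2 is at chr1:218345086-218345385 on the plus strand and TGFB2-AS1 at chr1:218345629-218345928 on the minus strand. Capitals mark matches on either strand to 5 searched motifs: the SMAD element CAGAC, its palindrome GTCTAGAC, the AP-1 site TGANTCA, the cyclic AMP element TGACGTCA and the heat shock element core GAANNTTC.
TGFB2: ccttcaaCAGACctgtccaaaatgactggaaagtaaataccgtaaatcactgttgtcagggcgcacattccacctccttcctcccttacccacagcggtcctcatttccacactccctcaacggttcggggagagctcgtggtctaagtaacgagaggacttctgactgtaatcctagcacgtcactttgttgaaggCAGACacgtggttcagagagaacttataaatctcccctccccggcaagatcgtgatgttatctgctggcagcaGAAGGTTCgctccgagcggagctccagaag
TGFB2-AS1: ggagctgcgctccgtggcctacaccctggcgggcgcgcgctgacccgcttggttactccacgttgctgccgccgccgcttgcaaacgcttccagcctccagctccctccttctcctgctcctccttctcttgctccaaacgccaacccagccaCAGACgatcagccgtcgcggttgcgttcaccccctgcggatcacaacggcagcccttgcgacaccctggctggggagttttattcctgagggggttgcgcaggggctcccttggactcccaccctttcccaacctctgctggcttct
The TGFB2 window held CAGAC at -243 and -53 and a heat shock core match, GAAGGTTC, at 21, counted from the start site as 1, and the TGFB2-AS1 window held CAGAC at -97. Of all 35116 windows of this length, 45.3% held the SMAD element, 0.202% its palindrome, 7.71% the AP-1 site, 1.85% the cyclic AMP element and 6.77% the heat shock core. No matches overlapped in the windows printed here, and a match describes letters only.

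TGFB2-AS1 was counted from 17 to 93 reads a library, the thinnest of the tested members. In iR_KOA the unexposed libraries held 0.826, 1.26 and 1.47 FPKM and the exposed ones 2.76, 1.49 and 3.83. In iR_KOA_D3 they held 1.60, 1.41 and 2.64 and 4.80, 4.30 and 3.80. All exposed libraries were above all unexposed ones in both backgrounds, with differences of 0.72 ± 0.20 (SE, adjusted p = 0.00819) and 0.90 ± 0.20 (SE, adjusted p = 0.000804). The first of these was lost without exposed replicate 3 (0.50, adjusted p = 0.0656) and with only the 2 groups fitted (0.72, adjusted p = 0.0617). In KOA the values were 1.96, 1.61 and 1.71 unexposed and 2.20, 2.53 and 3.32 exposed, a difference of 0.41 ± 0.20 (SE, adjusted p = 0.113). In iR_WTA_D3 the direction was opposite, with 3.37, 2.82 and 3.42 unexposed and 1.68, 1.20 and 2.70 exposed, a difference of -0.59 ± 0.20 (SE, adjusted p = 0.0225) that was lost without exposed replicate 1 or 2 or unexposed replicate 1 or 3 (nearest to 0 at -0.42, adjusted p = 0.130) and with no filter (adjusted p = 0.0595). The genotypes' exposure effects with D3 differed by 1.49 ± 0.29 (SE, adjusted p = 0.00434). In iR_WTA exposure changed TGFB2-AS1 by -0.073 ± 0.20 (SE, adjusted p = 0.829).

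INHBA (chromosome 7, 41685114 to 41705406, NCBI gene 3624) encodes the beta A subunit shared by activin and inhibin. It was at the edge of detection, with 0 to 44 reads a library, 0 reads in 6 libraries and fewer than 10 in 21. The 3 exposed iR_WTA libraries had 44, 29 and 25 reads and the unexposed ones 11, 14 and 8, without overlap, and their mean levels were 0.108 and 0.0369 FPKM. All 12 wild-type libraries had at least 6 reads, and the 18 knockout libraries had 0 to 11. Without the filter on low values, the exposure difference of INHBA in iR_WTA was 0.095 ± 0.013 (SE, adjusted p = 2.69e-05) by limma on the log2(FPKM + 1) scale, which understates a change at such levels, and 0.014 ± 0.013 (SE, adjusted p = 0.597) in iR_WTA_D3. No exposure difference in a knockout background passed (adjusted p = 0.135 in KOA, the lowest, and the 1 of the 3 with an unadjusted p under 0.05). In the same fit INHBA was lower in the unexposed knockout, with differences of -0.047 ± 0.013 (SE, adjusted p = 0.00642) with iR and -0.035 ± 0.013 (SE, adjusted p = 0.0388) with D3. The interactions of exposure with genotype in iR (-0.087 ± 0.019 (SE, adjusted p = 0.0467)) and with D3 in iR_WTA (-0.082 ± 0.019 (SE, adjusted p = 0.0435)) also passed, and the other 3 did not. The fit shared its estimate of spread over all 10 groups. The SD of INHBA ran from 0.00201 FPKM in exposed iR_KOA_D3 to 0.0320 in exposed iR_WTA. The SE is thus likely too small, and the p-values too low, where exposed iR_WTA enters.

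TGFBR1 (chromosome 9, 99103647 to 99154192, NCBI gene 7046), the type I receptor kinase, was lower after exposure in 4 of 5 backgrounds. Unexposed KOA libraries held 4.70, 5.00 and 4.69 FPKM and exposed ones 3.66, 4.02 and 3.72. For iR_KOA the values were 5.88, 6.04 and 5.39 and 3.52, 4.46 and 4.39. For iR_WTA they were 6.69, 7.57 and 6.66 and 5.10, 5.26 and 5.61. In these 3 backgrounds no exposed library reached an unexposed one. Over all tested genes 22.7% fell in KOA, 22.3% in iR_KOA, 27.8% in iR_KOA_D3, 17.2% in iR_WTA and 26.5% in iR_WTA_D3. The differences of TGFBR1 were -0.27 ± 0.079 (SE, adjusted p = 0.00754), -0.41 ± 0.079 (SE, adjusted p = 0.000341) and -0.33 ± 0.079 (SE, adjusted p = 0.00247), or mean levels at 0.793, 0.714 and 0.764 of the unexposed. In iR_WTA_D3 the values were 7.79, 7.76 and 7.89 unexposed and 5.68, 5.56 and 7.48 exposed, also without overlap, and exposed replicate 3 was nearest to the unexposed group. That difference was -0.29 ± 0.079 (SE, adjusted p = 0.00428), and -0.29, adjusted p = 0.0523 with only the 2 groups fitted. In iR_KOA_D3 the values were 5.49, 5.65 and 6.11 and 4.47, 5.02 and 5.26, without overlap, and the difference of -0.19 ± 0.079 (SE, adjusted p = 0.0521) missed the threshold. Same-numbered libraries of this background deviated together only weakly (correlations of 0.115, 0.156 and 0.168), and single pairs of other backgrounds reached 0.31. The labels do not say that the numbers pair libraries. With the replicate number as a block, fitted as an effect shared by all 10 groups, TGFBR1 passed (-0.19, adjusted p = 0.0351). That block does not pair libraries within this background. TGFBR1 also passed with only the 2 groups fitted (-0.19, adjusted p = 0.0387) and without exposed replicate 3 (-0.23, adjusted p = 0.0385).

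TGFBR2 (chromosome 3, 30606356 to 30694142, NCBI gene 7048), the type II receptor that binds ligand first, was 7.67 to 17.5 times as abundant as TGFBR1 per length in the 10 groups. Exposure moved it little. In KOA the unexposed libraries held 55.1, 53.9 and 54.4 FPKM and the exposed ones 60.7, 58.9 and 59.9, without overlap, a difference of 0.13 ± 0.030 (SE, adjusted p = 0.000941) and the only exposure effect on TGFBR2 past the test. In the other backgrounds the differences ran from -0.058 in iR_WTA to 0.061 in iR_KOA_D3. With median-of-ratios scaling 2 of these passed, iR_KOA (0.083, adjusted p = 0.0458) and iR_KOA_D3 (0.092, adjusted p = 0.0190). The ratio of TGFBR2 to TGFBR1 was 11.4 ± 0.502 (SD, n = 3) in unexposed and 15.8 ± 1.00 in exposed KOA. It was 7.67 ± 0.456 and 11.2 ± 1.38 in iR_KOA, and 13.9 ± 0.816 and 17.5 ± 0.679 in iR_WTA.

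**Figure D3:**
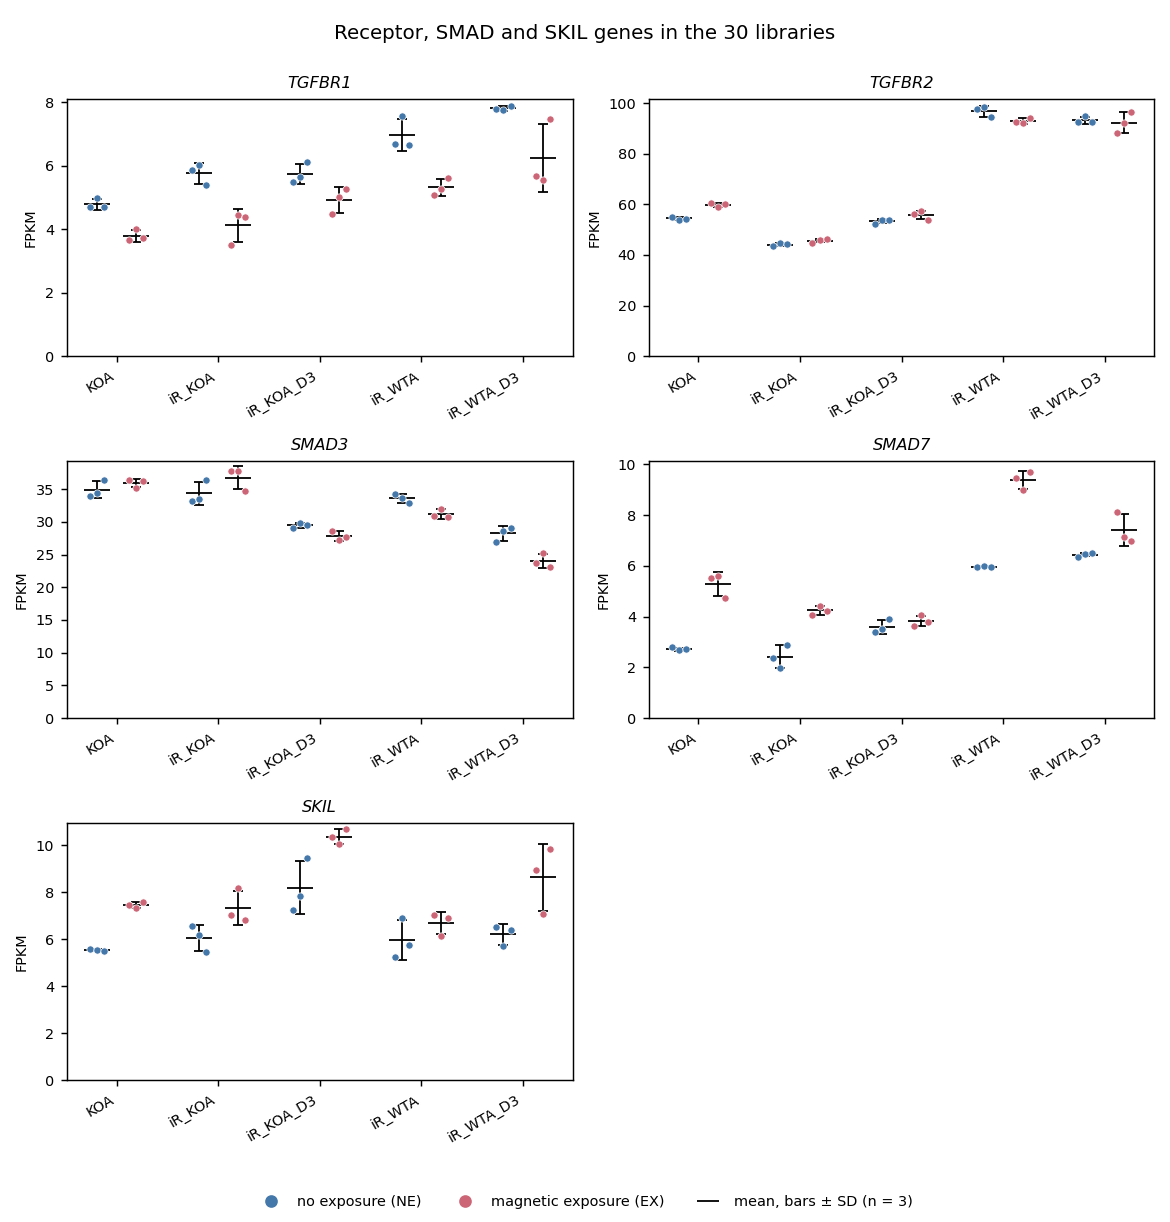
FPKM of TGFBR1, TGFBR2, SMAD3, SMAD7 and SKIL in each library. Points are the 30 libraries, grouped by background and coloured by exposure, and black marks are the mean ± SD of 3 libraries. TGFBR2 runs from 43.5 to 60.7 FPKM in the 18 knockout libraries and from 88.2 to 98.4 in the 12 wild-type libraries.

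SMAD3 (chromosome 15, 67065602 to 67195169, NCBI gene 4088) carries the signal from the receptor to the nucleus. It passed the exposure test only in iR_WTA_D3, where the unexposed libraries held 26.9, 28.6 and 29.1 FPKM and the exposed ones 23.7, 25.3 and 23.2. The groups did not overlap, and the difference was -0.22 ± 0.042 (SE, adjusted p = 0.000130). The other 4 differences ran from -0.10 in iR_WTA to 0.095 in iR_KOA. Its levels stayed within 23.2 to 37.8 FPKM over all 30 libraries, the smallest ratio of highest to lowest level among the 9 genes. In iR_KOA the difference passed with median-of-ratios scaling (0.13, adjusted p = 0.0282), with quantile normalization (0.14, adjusted p = 0.0178), and without exposed or unexposed replicate 3 (adjusted p = 0.0188 and 0.0222).

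SMAD7 (chromosome 18, 48919853 to 48950965, NCBI gene 4092) encodes the inhibitory SMAD that blocks TGFBR1 and that the pathway itself induces. In KOA it held 2.79, 2.67 and 2.71 FPKM unexposed and 5.51, 5.61 and 4.74 exposed. In iR_KOA the values were 2.37, 1.99 and 2.88 and 4.08, 4.42 and 4.23. In iR_WTA they were 5.97, 6.00 and 5.94 and 9.45, 8.99 and 9.71. Exposed libraries lay above unexposed ones without overlap in these 3 backgrounds, none of which carries the D3 label. The differences were 0.75 ± 0.069 (SE, adjusted p = 3.20e-09) in KOA, 0.63 ± 0.069 (SE, adjusted p = 2.27e-07) in iR_KOA and 0.57 ± 0.069 (SE, adjusted p = 8.41e-07) in iR_WTA, with ratios of mean FPKM of 1.94, 1.76 and 1.57. With D3, the knockout held 3.40, 3.50 and 3.91 unexposed and 3.65, 4.06 and 3.77 exposed, which overlapped, a difference of 0.070 ± 0.069 (SE, adjusted p = 0.441). The wild type with D3 held 6.36, 6.46 and 6.51 and 8.12, 7.13 and 6.98, without overlap, a difference of 0.17 ± 0.069 (SE, adjusted p = 0.0482) that was lost with only the 2 groups fitted (0.17, adjusted p = 0.0760), with a pseudocount of 0.1 (0.19, adjusted p = 0.0768), and without exposed replicate 1 or any 1 unexposed library (lowest 0.11, adjusted p = 0.243). That call was also lost with no filter and with the replicate number as a block.

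The exposure effect on SMAD7 was smaller with D3 than without it in the knockout. The effect in iR_KOA_D3 minus that in iR_KOA was -0.56 ± 0.098 (SE, adjusted p = 0.00147), where it was the only member past the test and 4.14% of all genes passed. In the wild type the same interaction was -0.40 ± 0.098 (SE, adjusted p = 0.0352), again the only member, with 1.67% of all genes past it. The wild-type call was lost with a pseudocount of 0.1 (-0.45, adjusted p = 0.0663), median-of-ratios scaling (-0.37, adjusted p = 0.0555), quantile normalization (-0.37, adjusted p = 0.0575) and without any of 10 of the 12 libraries, all except iR_WTA_D3 exposed replicates 1 and 2 (adjusted p up to 0.102). It was also lost with no filter, where INHBA was the only member past the test. By level, iR_WTA EX led at 9.38 ± 0.366 FPKM (SD, n = 3), followed by iR_WTA_D3 EX (7.41 ± 0.623), iR_WTA_D3 NE (6.45 ± 0.0761), iR_WTA NE (5.97 ± 0.0286), KOA EX (5.29 ± 0.474) and iR_KOA EX (4.25 ± 0.171), with no overlap between neighbours down to iR_KOA_D3 EX (3.83 ± 0.211). That group overlapped iR_KOA_D3 NE (3.60 ± 0.270), and KOA NE (2.72 ± 0.0592) overlapped iR_KOA NE (2.42 ± 0.448) at the bottom. All 12 wild-type libraries were above all 18 knockout libraries, exposed or not. The promoter window of SMAD7, shown because exposure raised it in both genotypes, is the one of its 3 windows at the annotated gene's outer start, at chr18:48950916-48951215 on the minus strand, with capitals as above.
SMAD7: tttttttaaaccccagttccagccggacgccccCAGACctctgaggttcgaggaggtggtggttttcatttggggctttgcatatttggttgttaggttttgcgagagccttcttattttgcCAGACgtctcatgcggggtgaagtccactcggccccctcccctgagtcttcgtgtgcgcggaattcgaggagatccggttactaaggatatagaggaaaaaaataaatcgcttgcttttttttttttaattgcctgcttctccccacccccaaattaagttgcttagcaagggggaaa
It held CAGAC at -217 and -128 and no match to the other 4 motifs. The other 2 windows held 1 and 0 matches to CAGAC.

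SKIL (chromosome 3, 170357715 to 170396849, NCBI gene 6498) encodes SnoN, a co-repressor of SMAD target genes that is itself a SMAD target. Unexposed KOA libraries held 5.57, 5.55 and 5.48 FPKM and exposed ones 7.47, 7.34 and 7.58. For iR_KOA_D3 the values were 7.26, 7.86 and 9.45 and 10.4, 10.0 and 10.7. For iR_WTA_D3 they were 6.54, 5.70 and 6.40 and 8.97, 7.08 and 9.86. Exposed libraries were above unexposed ones without overlap in all 3, with differences of 0.37 ± 0.095 (SE, adjusted p = 0.00267), 0.31 ± 0.095 (SE, adjusted p = 0.00919) and 0.41 ± 0.095 (SE, adjusted p = 0.00121). The rise in iR_KOA_D3 was lost without unexposed replicate 1 (0.24, adjusted p = 0.0706). In iR_KOA SKIL held 6.55, 6.19 and 5.47 and 7.03, 8.17 and 6.82, a difference of 0.24 ± 0.095 (SE, adjusted p = 0.0545) that passed with median-of-ratios scaling (0.27, adjusted p = 0.0324) with quantile normalization (0.26, adjusted p = 0.0332) and without exposed replicate 3 or unexposed replicate 1 (adjusted p = 0.0405 and 0.0436). In iR_WTA it held 5.23, 6.92 and 5.76 and 7.02, 6.16 and 6.92, which overlapped, a difference of 0.15 ± 0.095 (SE, adjusted p = 0.263). No interaction involving SKIL passed, so its exposure effect was not shown to differ between backgrounds. The SKIL window at chr3:170357465-170357764 on the plus strand is shown as the one of the printed windows with a cyclic AMP element.
SKIL: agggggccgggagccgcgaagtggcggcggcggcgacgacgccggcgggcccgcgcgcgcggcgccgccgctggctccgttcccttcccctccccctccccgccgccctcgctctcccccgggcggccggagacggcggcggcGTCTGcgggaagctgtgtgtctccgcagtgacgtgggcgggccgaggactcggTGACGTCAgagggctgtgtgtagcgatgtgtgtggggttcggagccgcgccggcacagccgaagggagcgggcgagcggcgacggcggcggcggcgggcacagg
It held the SMAD element on the other strand (GTCTG) at -107 and TGACGTCA at -54. All 9 genes had RefSeq promoter windows.

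Comparing the genotypes in unexposed libraries, TGFBR2, SMAD7, TGFB2 and TGFB2-AS1 were lower in the knockout both without and with D3. With iR alone 5 of the 8 genes passed, all lower in the knockout, where 65.3% of all tested genes passed. With iR and D3, 7 passed against 69.1% of all genes, 6 lower and 1 higher. These totals lie near the background. By direction, 37.4% of all genes were lower and 27.9% higher with iR alone, and 44.3% and 24.8% with D3. The members' split thus leaned further to lower than that of all genes, which was not tested as a set. The median of the 8 genes was -0.54 without and -0.35 with D3, against -0.056 and -0.11 over all genes tested.

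The receptor gene TGFBR2 held 43.5, 44.8 and 44.2 FPKM in unexposed iR_KOA and 97.5, 98.4 and 94.4 in unexposed iR_WTA. With D3 the values were 52.3, 53.9 and 53.9 and 92.5, 94.8 and 92.4. No knockout library came near a wild-type one. The differences were -1.11 ± 0.030 (SE, adjusted p = 1.09e-20) and -0.79 ± 0.030 (SE, adjusted p = 8.92e-18), or 0.456 and 0.572 of the wild-type mean. SMAD7 differed by -1.04 ± 0.069 (SE, adjusted p = 1.23e-12) and -0.70 ± 0.069 (SE, adjusted p = 2.17e-09), with knockout means of 2.42 ± 0.448 and 3.60 ± 0.270 FPKM (SD, n = 3) against 5.97 ± 0.0286 and 6.45 ± 0.0761. TGFB2 differed by -0.85 ± 0.056 (SE, adjusted p = 7.76e-13) and -0.31 ± 0.056 (SE, adjusted p = 2.43e-05), and TGFB2-AS1 by -1.04 ± 0.20 (SE, adjusted p = 8.27e-05) and -0.57 ± 0.20 (SE, adjusted p = 0.0163). TGFB2-AS1 with D3 was lost without iR_KOA_D3 unexposed replicate 1 or 2 (adjusted p up to 0.0849). Whether the genotype differences changed with D3 was not tested.

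TGFBR1 was lower in the knockout by -0.23 ± 0.079 (SE, adjusted p = 0.0120) with iR alone, a call lost without iR_KOA unexposed replicate 3 or iR_WTA unexposed replicate 2 (adjusted p up to 0.0738), and by -0.39 ± 0.079 (SE, adjusted p = 0.000132) with D3. TGFB1 passed only with D3, at -0.25 ± 0.068 (SE, adjusted p = 0.00253), and was lost there with median-of-ratios scaling (-0.15, adjusted p = 0.0694). SKIL was the gene that was higher in the knockout with D3, by 0.34 ± 0.095 (SE, adjusted p = 0.00257), while with iR alone it differed by 0.025 ± 0.095 (SE, adjusted p = 0.830). SMAD3 differed by 0.030 ± 0.042 (SE, adjusted p = 0.544) and 0.062 ± 0.042 (SE, adjusted p = 0.193). The second of these passed with median-of-ratios scaling (0.16, adjusted p = 0.00323) and quantile normalization (0.15, adjusted p = 0.00475).

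**Figure D4:**
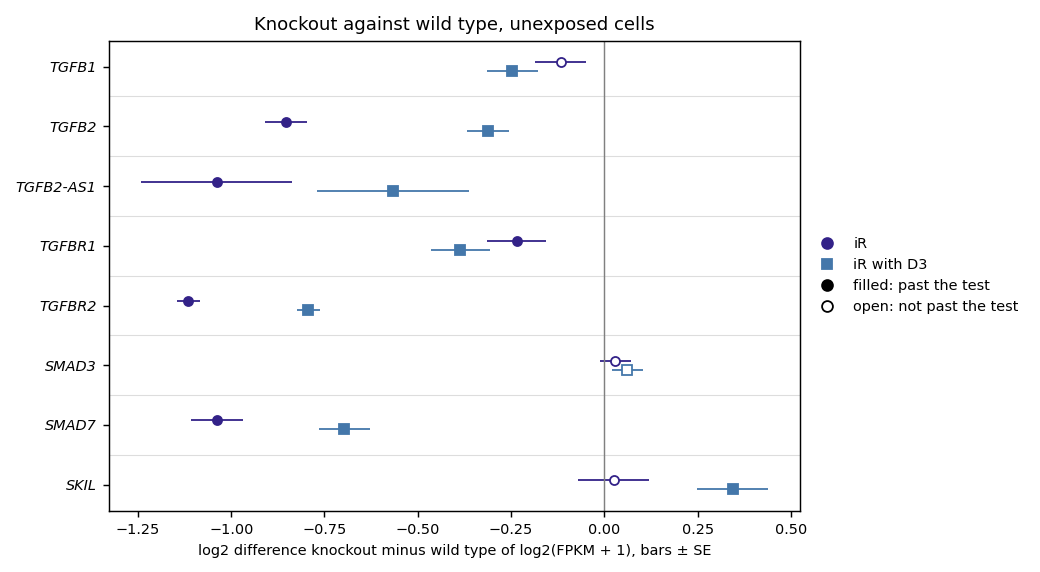
Knockout effect on the 8 tested genes in unexposed cells. Each point is the difference knockout minus wild type of log2(FPKM + 1) with iR alone or with iR and D3 (n = 3 libraries a group), bars are ± SE, and filled points passed the test. TGFBR2 lies at -1.11 and -0.79 and SMAD7 at -1.04 and -0.70, while SMAD3 lies at 0.030 and 0.062.

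In unexposed cells, libraries with D3 were also set against those without it. In the wild type 3 of the 8 genes passed, against 48.7% of all genes: TGFB1 rose by 0.27 ± 0.068 (SE, adjusted p = 0.00184), TGFB2 fell (-0.34 ± 0.056 (SE, adjusted p = 2.00e-05)) and SMAD3 fell (-0.24 ± 0.042 (SE, adjusted p = 2.81e-05)). In the knockout 5 passed against 53.7%: SMAD7 rose by 0.44 ± 0.069 (SE, adjusted p = 8.65e-06), SKIL by 0.37 ± 0.095 (SE, adjusted p = 0.00181), TGFBR2 by 0.27 ± 0.030 (SE, adjusted p = 4.52e-08) and TGFB2 by 0.21 ± 0.056 (SE, adjusted p = 0.00298), and SMAD3 fell (-0.21 ± 0.042 (SE, adjusted p = 0.000120)). In the knockout 35.7% of all calls were higher, 53.1% with median-of-ratios scaling and 51.8% with quantile normalization. SMAD3 there was lost with quantile normalization (-0.099, adjusted p = 0.0596). TGFB1 in the knockout differed by 0.14 ± 0.068 (SE, adjusted p = 0.0811) and passed with median-of-ratios scaling (0.24, adjusted p = 0.00648) and quantile normalization (0.25, adjusted p = 0.00321). Between unexposed iR_KOA and KOA 2 of the 8 passed against 38.5%, TGFBR2 at -0.30 ± 0.030 (SE, adjusted p = 3.16e-08) and TGFBR1 at 0.22 ± 0.079 (SE, adjusted p = 0.0282), the latter lost without KOA replicate 1 or 3 or iR_KOA replicate 1 or 2 (adjusted p up to 0.106). These comparisons share unexposed groups with each other and with those above.

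The rest of the pathway was read from 6 gene lists holding 86 genes, of which 65 were tested. Among the known targets of TGF-beta and BMP signalling, 21 of 22 were tested, and after exposure 11 rose and 1 fell in KOA, 12 rose in iR_KOA, 8 in iR_KOA_D3, 13 in iR_WTA and 12 in iR_WTA_D3, with no fall by limma in the last 4 (at an unadjusted p under 0.05, 0 fell in iR_KOA and iR_WTA and 1 each in iR_KOA_D3 and iR_WTA_D3). Over all tested genes 18.8% rose and 22.7% fell in KOA, 13.1% rose in iR_KOA, 17.3% in iR_KOA_D3, 11.4% in iR_WTA and 15.3% in iR_WTA_D3. The list's median difference was 0.16, 0.40, 0.062, 0.49 and 0.24 in that order. In every setting tried the targets that rose numbered 10 or 11 in KOA, 12 or 13 in iR_KOA, 7 or 8 in iR_KOA_D3, 13 in iR_WTA and 11 to 14 in iR_WTA_D3. The balance of all calls depended on scaling: in iR_KOA 36.9% of all calls were higher, 48.8% with median-of-ratios scaling and 48.1% with quantile normalization, and in iR_WTA_D3 36.6% of all calls were higher, 50.5% with median-of-ratios scaling and 47.7% with quantile normalization.

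CCN2, a matricellular protein gene and a classic target, rose from a mean of 1.10 to 11.7 FPKM in KOA (2.60 ± 0.074 (SE, adjusted p = 3.73e-19)). In iR_KOA it differed by 1.16 ± 0.074 and in iR_KOA_D3 by 1.59 ± 0.074, against 0.68 ± 0.074 in iR_WTA and 0.48 ± 0.074 in iR_WTA_D3, all past the test. As for TGFB2, its rise was larger in the knockout, by 0.48 ± 0.10 (SE, adjusted p = 0.0283) with iR and 1.12 ± 0.10 (SE, adjusted p = 2.15e-07) with iR and D3 as interactions. IL11, a cytokine gene, rose from 21.3 to 39.3 FPKM in iR_WTA_D3 (0.85 ± 0.089 (SE, adjusted p = 4.03e-08)). JUNB, an AP-1 subunit, rose from 13.4 to 28.3 FPKM in iR_WTA (1.02 ± 0.11 (SE, adjusted p = 2.55e-07)), and BHLHE40 from 45.3 to 97.1 (1.08 ± 0.033 (SE, adjusted p = 7.78e-18)). The BMP-responsive ID3 rose from 73.8 to 138 FPKM in KOA (0.90 ± 0.063 (SE, adjusted p = 2.24e-11)). The collagen gene COL1A1, also on the fibroblast marker list, rose from 0.482 to 2.23 FPKM in KOA (1.12 ± 0.10 (SE, adjusted p = 2.77e-09)) and passed in both wild-type backgrounds. The fibroblast marker COL1A2 stayed at or below 0.0111 FPKM in every library. In all 5 backgrounds 6 of the 21 rose and 7 passed in none. Among those 7 are the matrix gene FN1, TGFBI and TAGLN, whose differences stayed between -0.12 and 0.072 and which were named after their values were seen.

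**Figure D5:**
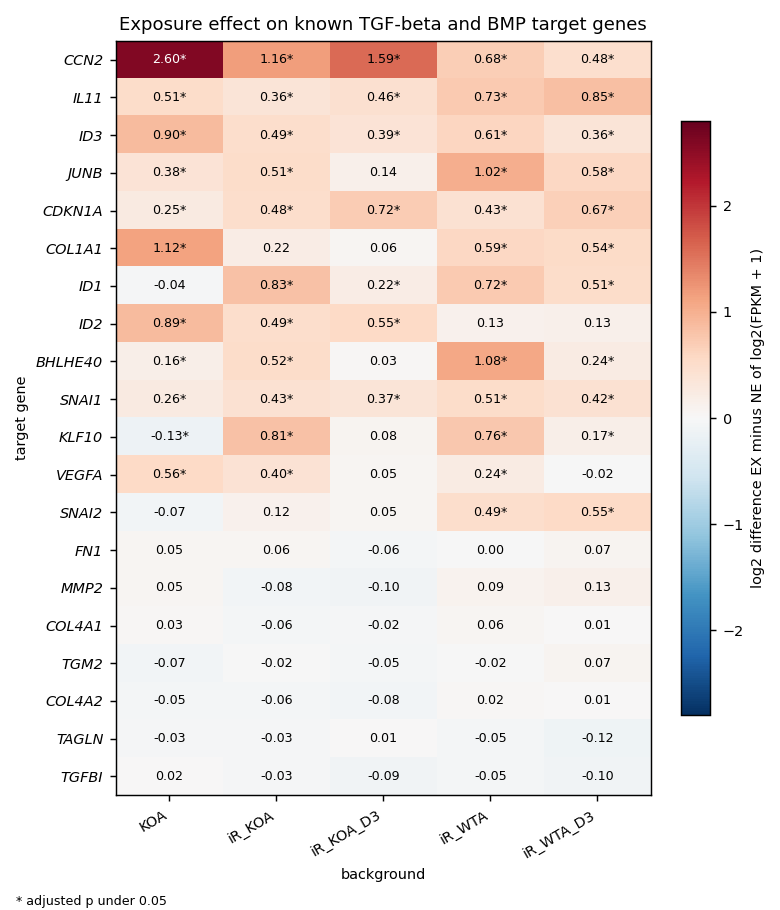
Exposure effect on 20 of the 21 tested target genes of TGF-beta and BMP signalling. Rows are genes ordered by their mean over the 5 backgrounds, columns are backgrounds, colour and printed value are the difference EX minus NE of log2(FPKM + 1), and a star marks an adjusted p under 0.05. CCN2 heads the order, with 2.60 in KOA and 0.48 in iR_WTA_D3, and 7 genes at the foot carry no star.

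Of the 7 tested other ligands of the family, 3 rose in KOA, 2 in iR_KOA, 4 in iR_KOA_D3, 2 in iR_WTA and 3 in iR_WTA_D3, and 1 fell in iR_KOA and 1 in iR_KOA_D3. BMP4, a bone morphogenetic protein gene, rose from 4.46 to 12.6 FPKM in KOA (1.31 ± 0.081 (SE, adjusted p = 1.68e-12)) and from 4.92 to 9.33 in iR_WTA (0.80 ± 0.081 (SE, adjusted p = 5.28e-08)). GDF15, a stress-induced member of the family, rose from 42.1 to 61.8 FPKM in KOA (0.54 ± 0.053 (SE, adjusted p = 8.70e-09)), and both genes rose in all 5 backgrounds. In iR_WTA_D3 the genes of this list that rose numbered 1 to 4 over the alternatives, so at least 1 of these 2 calls was not always kept. Among 18 tested SMADs and regulators the counts higher and lower were 6 and 3 in KOA, 6 and 2 in iR_KOA, 8 and 3 in iR_KOA_D3, 8 and 2 in iR_WTA and 8 and 3 in iR_WTA_D3. In iR_WTA those higher numbered 4 to 8 over the alternatives. Over all tested genes the shares higher and lower were 18.8% and 22.7% in KOA, 13.1% and 22.3% in iR_KOA, 17.3% and 27.8% in iR_KOA_D3, 11.4% and 17.2% in iR_WTA and 15.3% and 26.5% in iR_WTA_D3. SMAD5, a SMAD of the BMP branch, rose in all 5 backgrounds, from 5.99 to 9.86 FPKM in KOA (0.64 ± 0.092 (SE, adjusted p = 4.12e-06)). TGIF1, a co-repressor of SMAD2 and SMAD3, rose from 10.5 to 16.6 FPKM in iR_WTA_D3 (0.62 ± 0.044 (SE, adjusted p = 7.71e-11)). The inhibitory SMAD6, the BMP branch's counterpart of SMAD7, rose from 8.09 to 12.6 FPKM in KOA (0.58 ± 0.070 (SE, adjusted p = 2.92e-07)) and from 4.58 to 8.33 in iR_WTA_D3 (0.74 ± 0.070 (SE, adjusted p = 9.38e-09)) and passed in all 5 backgrounds. SMURF1, a ubiquitin ligase that removes SMADs and receptors, fell in all 5 backgrounds, by -0.55 at the most in iR_KOA_D3. BAMBI, a decoy receptor, fell in the knockout backgrounds (-0.39 ± 0.048, -0.34 ± 0.048 and -0.51 ± 0.048) while in iR_WTA it rose (0.13 ± 0.048 (SE, adjusted p = 0.0418)) and in iR_WTA_D3 it differed by 0.11 ± 0.048 (SE, adjusted p = 0.0807). Its effect differed between the genotypes by -0.47 ± 0.068 (SE, adjusted p = 0.000311) with iR and -0.61 ± 0.068 (SE, adjusted p = 4.15e-06) with iR and D3.

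Of 7 tested other receptors, 2 rose and 1 fell in KOA, 1 rose and 2 fell in each of iR_KOA, iR_KOA_D3 and iR_WTA, and 2 fell in iR_WTA_D3. Among 7 genes these counts lie near the shares of all tested genes, of which 17.2% (iR_WTA) to 27.8% (iR_KOA_D3) fell and 11.4% (iR_WTA) to 18.8% (KOA) rose. The type I activin receptor gene ACVR1B fell in all 5 backgrounds, from 11.8 to 7.52 FPKM in iR_KOA_D3 (-0.59 ± 0.044 (SE, adjusted p = 1.16e-10)), as TGFBR1 did in 4. Of 9 latency and activation genes, THBS1, whose product thrombospondin 1 can release active TGF-beta, rose in all 5 backgrounds, most in KOA from 1.95 to 4.05 FPKM (0.78 ± 0.051 (SE, adjusted p = 6.20e-12)). In iR_WTA THBS1 was the only gene of the list that rose, and that call was lost in at least 1 alternative setting. The other genes of that list passed 1 time upward, ITGAV in KOA, and 9 times downward over the 5 comparisons, with LTBP4, a latency binding protein gene, lower in 4. The 9 downward calls lie near the shares of all tested genes given above, so no more is read from that count. Of 3 tested extracellular antagonists 0 rose by limma in any background, also at an unadjusted p under 0.05. FSTL3, a follistatin-like activin antagonist, fell in 4 backgrounds, most in iR_WTA_D3 (-0.53 ± 0.061 (SE, adjusted p = 2.08e-07)). Over the 65 tested genes 14 rose in all 5 backgrounds and 2 fell in all 5, where 5.98% and 7.87% of all tested genes did, and 0 of the 8 tested members did either by limma (at an unadjusted p under 0.05, 0 rose and 1, TGFBR1, fell in all 5). The statements on all 5 backgrounds are of the main fit, and not every such call held in the alternatives.

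In unexposed cells the knockout had lower levels of most of the listed targets. Of the 21, 15 were lower and 4 higher with iR alone and 14 lower and 5 higher with D3, where 37.4% and 44.3% of all genes were lower and 27.9% and 24.8% higher, and the list medians were -0.40 and -0.43. With D3, 35.9% of all calls were higher, 47.6% with median-of-ratios scaling and 46.8% with quantile normalization. MMP2, a matrix metalloproteinase gene, held 1.74 FPKM in unexposed iR_KOA and 33.2 in iR_WTA (-3.64 ± 0.072 (SE, adjusted p = 1.37e-23)), and IL11 0.840 and 17.0 (-3.29 ± 0.089 (SE, adjusted p = 8.69e-21)). FN1, the fibronectin gene, went the other way, at 251 against 82.8 FPKM (1.59 ± 0.043 (SE, adjusted p = 8.31e-21)). PMEPA1, a target and feedback inhibitor in the list of regulators, held 15.4 FPKM against 128 (-2.98 ± 0.047 (SE, adjusted p = 1.33e-25)), and BAMBI 27.8 against 11.6 (1.19 ± 0.048 (SE, adjusted p = 3.37e-17)). Of the 18 regulators 9 were lower and 4 higher with iR alone, and 8 and 4 with D3. Of 9 latency and activation genes 7 were lower and 2 higher with iR alone and 6 and 3 with D3, LTBP2 having the most negative log2(FPKM + 1) difference with iR alone (-1.75 ± 0.052 (SE, adjusted p = 7.47e-20)) and the integrin gene ITGB6 the lowest ratio of mean FPKM, at 0.0935 against 1.75 FPKM. Other ligands were split 3 and 3 in both, with INHBB, the activin beta B subunit gene, at 33.6 against 4.22 FPKM (2.73 ± 0.057 (SE, adjusted p = 3.30e-23)). Other receptors were mostly higher in the knockout, 5 against 1 lower with iR alone and 5 against 2 with D3, unlike TGFBR2.

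Genes whose group means followed each member most closely were ranked by Pearson's r over the 10 group means of log2(FPKM + 1), among 6616 genes with a mean of at least 2 FPKM and a range of at least 0.5. The group means share genotype and exposure, so no p is given. For TGFB2 they were CYTH3 (r = 0.926), SREK1IP1 (r = 0.910) and ELL2 (r = 0.898). TGFB2-AS1 was closest to TGFB2 itself (r = 0.839), with which it shares sequence, then MYG1-AS1 (r = 0.795) and SEMA3C (r = 0.757). TGFBR2 was followed by GALNT10 (r = 0.985), RBFOX2 (r = 0.984) and MCAM (r = 0.980), and TGFBR1 by SNX30 (r = 0.980), PCNX1 (r = 0.968) and FZD6 (r = 0.967). The inhibitor SMAD7 was nearest to CHST3 (r = 0.968), HDAC7 (r = 0.966) and CRAMP1 (r = 0.964), and the 3 genes nearest to SKIL included FANCF (r = 0.932) and RIN2 (r = 0.923). TGFB1 was nearest to BTBD19 (r = 0.983), PLAAT4 (r = 0.956) and MAN1B1 (r = 0.956), and SMAD3 to MCOLN1 (r = 0.974), UBAC1 (r = 0.953) and EIF2B4 (r = 0.951).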

How the data were processed

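RNA of 30 A549 libraries was analysed in 10 groups of 3 taken from the labels. Polyadenylated RNA was selected and reverse transcribed from random hexamers, per the labels' protocols. The tools fastp, HISAT2 and HTSeq and the build GRCh38 come from the submitters' processing notes. Versions, annotation, gene lengths and strand setting: not given in the sources used here. The authors deposited 1 FPKM value per gene and library, a scale that removes length and depth but not composition, and 6 further value columns matched no sample and were not used. Whole reads were recovered from the steps of the deposited FPKM for 26801 of 26801 genes (tolerance 0.01). Depth was 34620432 to 38939336 reads a library (ratio 1.12), and INHBA and TGFB2-AS1 rest on few reads.

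Values were transformed as log2(FPKM + 1). All 10 groups were fitted together with limma 3.58.1 under R 4.3.3 (mean-variance trend, 20 residual degrees of freedom) over 12086 genes that reached 1 FPKM in 3 or more libraries, in 15 comparisons: exposure in 5 backgrounds, genotype in 2, D3 in 2, iR in 1, and 5 interactions. P-values were adjusted by Benjamini-Hochberg over all tested genes, two-sided. Fold ratios are of mean FPKM. The fit was tested on simulated data. The alternatives were a pseudocount of 0.1, no filter, a filter on the mean, median-of-ratios scaling, quantile normalization, a replicate block, only the compared groups fitted, and leaving out each of the 30 libraries. The 9 members and the gene lists were chosen with earlier results of these data known. All tested members were examined in each comparison, but differences that did not pass are not all printed, mainly in the D3, iR and interaction comparisons. Of each list at most 4 genes a comparison are named, taken from its 4 largest log2 differences past the test there, without naming all of them. A gene so named is also followed into other comparisons, and genes named after their values were seen are said to be so. The labels do not say that replicate numbers pair libraries, and same-numbered exposed and unexposed libraries all correlated over 0.1 in their deviations in iR_KOA_D3 only, so the reported fit has no block. Promoter sequences and positions are from RefSeq (GRCh38.p14), in which all 9 members matched by symbol. Values of 1 listed target and of 1 gene ranked near SKIL are not reported here, and the list counts and medians include that target.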

Additional observations from a re-analysis of the deposited data

Results flagged for a closer look

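The exposure effect differed between groups in 6 tests of the difference itself, for 3 of the 8 tested genes. Of all tested genes, 0.538% (exposure by genotype with iR) to 5.08% (exposure by iR in KOA) passed such a test. These tests share their libraries with the exposure differences and add no separate evidence. For TGFB2 the knockout's effect minus the wild type's was 0.54 ± 0.079 (SE, adjusted p = 0.000174) with iR and D3 and 0.34 ± 0.079 (SE, adjusted p = 0.0496) with iR alone, by limma's moderated test with Benjamini-Hochberg adjustment. All 6 exposed iR_KOA and iR_KOA_D3 libraries lay above all unexposed libraries of their own background, while the wild-type groups overlapped. The effect on TGFB2 in iR_KOA minus that in KOA was -0.28 ± 0.079 (SE, adjusted p = 0.0387). For TGFB2-AS1 the knockout's effect minus the wild type's was 1.49 ± 0.29 (SE, adjusted p = 0.00434) with iR and D3, from a rise in the knockout and a fall in the wild type, on 17 to 93 reads a library. For SMAD7 the effect with D3 minus that without was -0.56 ± 0.098 (SE, adjusted p = 0.00147) in the knockout and -0.40 ± 0.098 (SE, adjusted p = 0.0352) in the wild type. The calls on TGFB2 and TGFB2-AS1 with iR and D3 and on SMAD7 in the knockout held in every alternative run, and the other 3 did not.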

How the results depend on the processing

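No call changed direction. Over 120 single-gene differences and their alternatives, 1692 values kept their call, 75 lost it and 33 gained one. With only the compared groups fitted, the genes past the test numbered 2131 for exposure in iR_KOA (4272 with all groups), 17 for exposure by genotype with iR, 106 for the same with D3, 52 for exposure by D3 in iR_WTA and 158 in iR_KOA. Under that setting 3 members passed for exposure in iR_WTA_D3, 4 for iR in KOA, and 0 for exposure by genotype with iR and by iR in KOA. With no filter 3 passed for exposure in iR_WTA_D3, 1 for iR in KOA and 0 for exposure by iR in KOA. In that setting INHBA was the only member past exposure by genotype with iR and past exposure by D3 in iR_WTA. Median-of-ratios scaling gave 7 for exposure in iR_KOA and 0 for exposure by genotype with iR, by D3 in iR_WTA and by iR in KOA. Of all 12086 genes, 1858 were higher and 1951 lower in iR_KOA under that scaling, so 7 of the 8 members lies above that share. Shares over all genes are not printed for the other member counts here, so no more is read from them. Quantile normalization gave 0 for exposure by D3 in iR_WTA and 2 in iR_KOA. A pseudocount of 0.1 gave 40 genes and 0 members for exposure by genotype with iR and 0 members for exposure by D3 in iR_WTA, and a filter on the mean gave 0 members for the former. Where no member passed an interaction by limma, 1 to 4 did so at an unadjusted p under 0.05. The cause was not tested.

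Leaving out single libraries gave 3 to 5 members for exposure in iR_WTA_D3, 1 to 4 for iR in KOA, 0 to 1 for exposure by genotype with iR, by D3 in iR_WTA and by iR in KOA, and 1 to 2 for exposure by D3 in iR_KOA. The genes past the test ran from 30 to 74 for exposure by genotype with iR, 170 to 504 with D3, 88 to 506 for exposure by D3 in iR_WTA and 245 to 910 in iR_KOA.

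Same-numbered exposed and unexposed libraries deviated together at correlations from -0.24 to 0.31 over 15 pairs, with 7 over 0.1. All 3 pairs were over 0.1 in iR_KOA_D3 and in no other background, and the labels do not say that the numbers pair libraries. With the replicate block 0 members passed exposure by genotype with iR and by iR in KOA, SMAD7 was lost for exposure in iR_WTA_D3 (adjusted p = 0.0572), TGFB2 for those interactions (adjusted p = 0.0646 and 0.0502), and TGFBR1 passed in iR_KOA_D3 (adjusted p = 0.0351). The block gave each replicate number an effect shared by all groups, so it did not pair libraries within a background. It changed no other member's call.

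Scaling moved the share of calls that were higher from 52.1% to 40.4% (median-of-ratios) for exposure by genotype with D3, from 45.0% to 62.7% (median-of-ratios) for exposure by D3 in iR_WTA and from 32.7% to 44.6% (quantile) for exposure by iR in KOA. Depth limits INHBA, with fewer than 10 reads in 21 of 30 libraries, and TGFB2-AS1, with at most 93 reads, and log2(FPKM + 1) understates changes of both.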
